A study of Mus musculus with 7 samples.

Results

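Genes of 9 adhesion molecules of the immunoglobulin superfamily were followed in sorted mouse follicular dendritic cells (FDCs) of wild-type and Ngfr KO mice. The members were the rows of the deposited table whose symbol is Madcam1, Vcam1, Icam1, Icam2, Alcam, Jam2, Jam3, F11r or Cadm1, and all 9 were found among its 21176 genes. The rule names them by the kind of protein they encode and uses no measured value, but it was written with earlier results of these data known. FDCs are follicle stromal cells that display antigen to B cells, and Ngfr encodes the neurotrophin receptor p75. The groups were 4 wild-type (WT) samples and 3 samples of Ngfr KO mice, each a pool of popliteal nodes of several animals. All mice were male, aged 8 to 12 weeks and not immunized. Strain, the design of the Ngfr allele and the sorting gate are not given in the sources used here. If MAdCAM-1, VCAM-1 or ICAM-1 was among the proteins used to sort the cells, the level of its gene could depend on the gate, which was not tested. The labels do not name the animals behind each pool, so p-values measure the spread between these 7 libraries, which may be partly technical.

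Proteins of this family carry immunoglobulin-like domains on the cell surface and hold cells together, either by binding integrins of lymphocytes or by binding a like molecule on the next cell. MAdCAM-1 and VCAM-1 are ligands of integrins with the alpha 4 chain, and ICAM-1 and ICAM-2 are ligands of LFA-1. On FDCs, VCAM-1 and ICAM-1 are known as the anchors of germinal centre B cells, and MAdCAM-1 is a known surface marker of FDCs and of the marginal reticular cells near them. ALCAM binds CD6 on T cells, the junctional adhesion molecules (JAM-A from F11r, JAM-B from Jam2, JAM-C from Jam3) sit at cell contacts, and CADM1 binds itself, nectin-3 and the lymphocyte receptor CRTAM.

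Values are read counts per gene times 1 factor per library, called TMM (trimmed mean of M values) in the deposited table, with no gene length divided out. The WT libraries held 17244925 to 18873542 reads, and the Ngfr KO libraries 20741770 to 21538400, so every Ngfr KO library was the deeper one. After thinning the reads of each library to the lowest total, 8 of the 9 genes were tested and 6 called, beside 2844 of all 8333 genes tested. Without thinning, 6 of 8 were called, beside 2844 of 8326. A value of 1 stood for 230 to 295 reads. The raw reads of Ngfr itself overlapped between genotypes, at 97, 181, 298 and 298 over the WT libraries against 84, 104 and 46 over the Ngfr KO libraries. Its scaled values, 0.872 ± 0.421 (SD, n = 4) and 0.281 ± 0.087 (SD, n = 3), did not overlap, the closest being 0.377 and 0.353. Ngfr did not reach the filter and was called neither by limma without a filter (change -0.52, adjusted p = 0.122) nor by edgeR (change -1.55, adjusted p = 0.0574), and where its reads lie in the gene is not known. A gene was called when its Benjamini-Hochberg adjusted p from limma, over all 8326 genes that reached 1 in 3 samples or more, was under 0.05. Changes are differences of log2(value + 1), Ngfr KO minus WT.

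Of the 9 genes, 8 were tested, 4 rose (Madcam1, Vcam1, Icam1 and Cadm1), 2 fell (Alcam and Icam2) and 2 were not called (Jam3 and F11r). Jam2 did not reach the filter. Over all genes tested, 34.2% were called, 18.3% higher and 15.8% lower, so a call as such is common in this comparison. The median change of the 8 tested genes was 0.43, against 0.02 over all genes tested. The groups did not overlap for 7 of the 9, 4 higher and 3 lower. Such groups were found for 25.6% of all 21176 genes and for 40.9% of the genes tested, 22.6% higher and 18.3% lower.

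**Figure D1:**
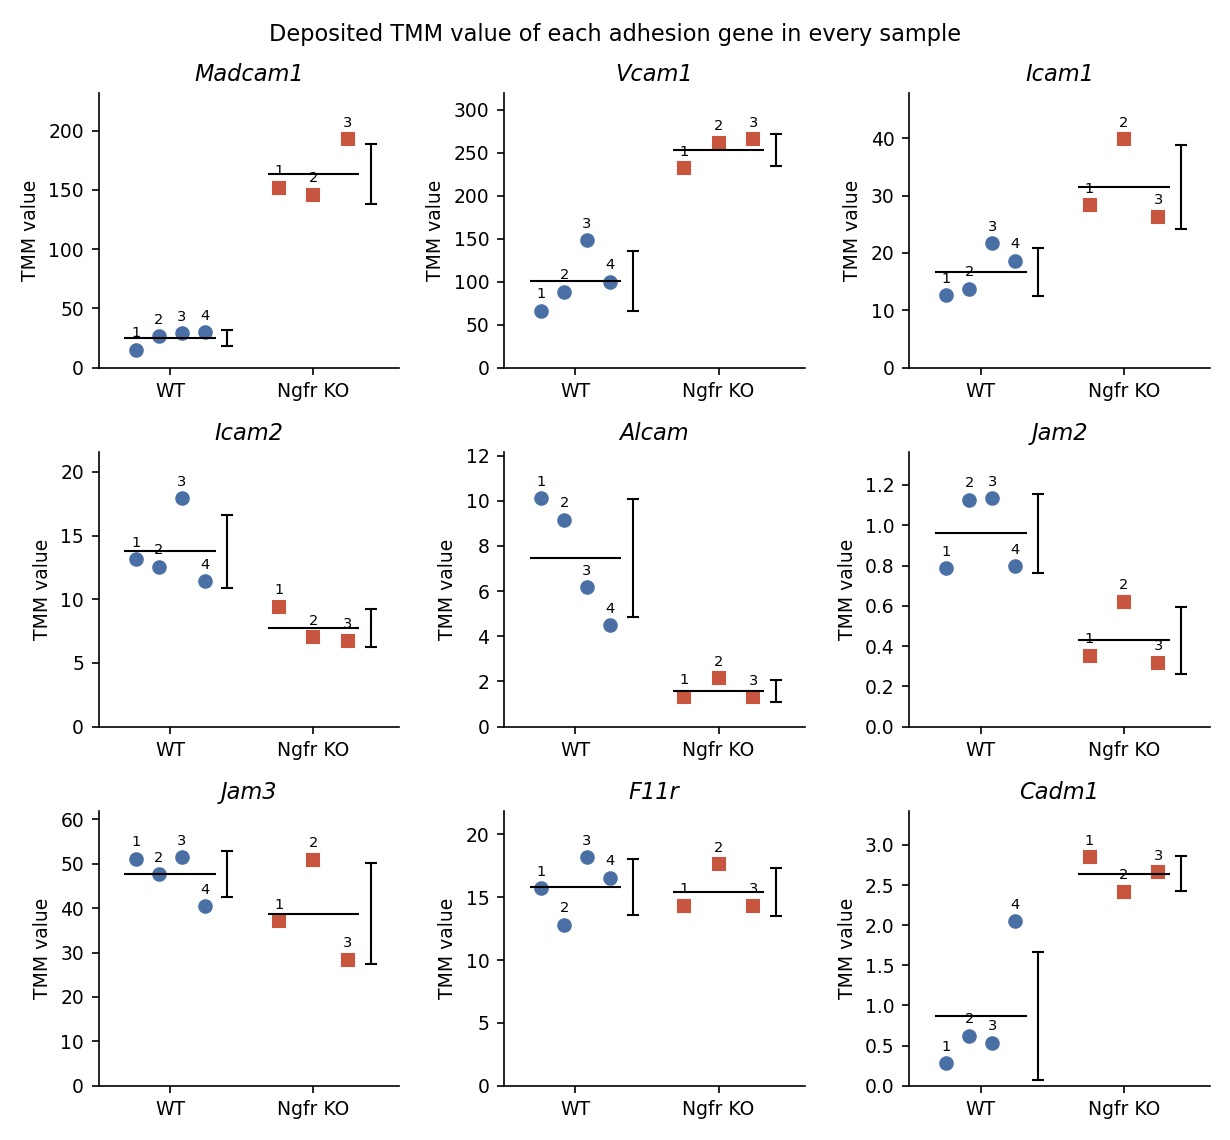
TMM value (vertical axes, linear, from 0) of each of the 9 genes in the 4 WT samples (circles) and the 3 Ngfr KO samples (squares), with replicate numbers; horizontal lines are means and error bars the SD. Madcam1 lies between 15.2 and 29.8 in WT and between 146 and 193 in Ngfr KO, while the F11r samples of both groups share one range.

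**Figure D2:**
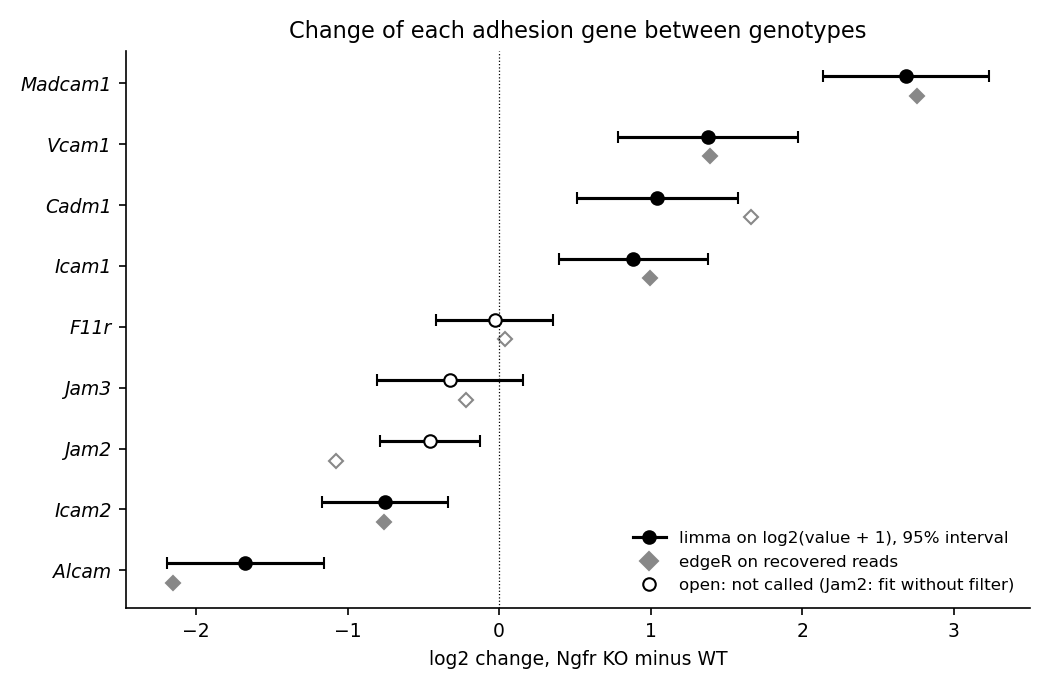
Change of each gene (horizontal axis, log2, Ngfr KO minus WT) with the 95% interval from limma (circles) and the edgeR estimate on recovered reads (diamonds); open symbols were not called. Madcam1 has the largest rise, 2.69, and Alcam the largest fall, -1.67.

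The integrin ligands of FDCs came first. Madcam1 (ENSMUSG00000020310, GRCm38 chr10:79664559-79668537, plus strand, protein coding) had values of 15.2, 26.6, 29.0 and 29.8 in WT replicates 1 to 4. In Ngfr KO replicates 1 to 3 it had 152, 146 and 193. Every Ngfr KO sample lay far above every WT sample, and WT replicate 1 was the lowest of all. The means were 25.2 ± 6.8 (SD, n = 4) and 163 ± 26 (SD, n = 3), a ratio of 6.50. limma gave a log2 change of 2.69 (SE 0.25, adjusted p = 1.35e-04), the eighth largest rise among the 8326 genes tested. Without WT replicate 1 the change was 2.47.

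Vcam1 (ENSMUSG00000027962, GRCm38 chr3:116109949-116129688, minus strand) encodes the ligand through which germinal centre B cells hold on to FDCs. Its values were 66.5, 88.6, 148 and 100.02 in WT and 232, 262 and 266 in Ngfr KO. The WT samples were spread widely, with replicate 3 highest, and the Ngfr KO samples lay close together above all of them. The coefficient of variation was 34.3% in WT and 7.24% in Ngfr KO. The ratio of the means was 2.51, and the limma change was 1.38 (log2, SE 0.27, adjusted p = 0.00324).

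Icam1 (ENSMUSG00000037405, GRCm38 chr9:21015985-21028817, plus strand), the inducible ligand of LFA-1, had values of 12.6, 13.7, 21.7 and 18.6 in WT. In Ngfr KO the values were 28.3, 39.8 and 26.3, with replicate 2 well above the others. All Ngfr KO samples lay above all WT samples. The ratio was 1.89, and the limma change was 0.89 (log2, SE 0.23, adjusted p = 0.0114). Without Ngfr KO replicate 2 the change was 0.71 and Icam1 was not called (limma adjusted p = 0.0558). The antisense gene Gm47079 covers 11.7% of the Icam1 exons and had a value of at most 0.694.

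WT replicate 1 was the lowest WT sample for Madcam1, Vcam1, Icam1, Cadm1 and Jam2, and the highest for Alcam. It was also the WT sample with the lowest mean over FDC marker genes, 4.34 on the log2(value + 1) scale against 5.43 to 5.71 in the other WT samples.

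To show the DNA next to 2 of the genes that rose together, the 250 bases before the RefSeq start (GRCm38.p6) are printed from 5′ to 3′ on the gene's strand. Capitals mark matches to the NF-kB consensus and to the spaced palindrome TTCNNNGAA bound by STAT proteins, searched on both strands.
Madcam1, chr10:79664309-79664558, plus strand: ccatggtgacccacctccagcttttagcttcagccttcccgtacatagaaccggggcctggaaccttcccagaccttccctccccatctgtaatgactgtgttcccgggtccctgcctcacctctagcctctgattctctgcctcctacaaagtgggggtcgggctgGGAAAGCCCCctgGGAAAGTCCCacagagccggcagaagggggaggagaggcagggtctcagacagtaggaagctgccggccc
Icam1, chr9:21015690-21015939, plus strand: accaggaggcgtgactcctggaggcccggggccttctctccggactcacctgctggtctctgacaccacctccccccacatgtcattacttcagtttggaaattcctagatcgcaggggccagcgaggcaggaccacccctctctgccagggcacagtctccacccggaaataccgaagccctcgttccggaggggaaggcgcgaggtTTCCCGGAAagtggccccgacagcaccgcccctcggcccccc
The Madcam1 window held 2 matches to the NF-kB consensus, both on the minus strand, at bases -83 to -74 and -70 to -61 counted back from the start. Of 32851 RefSeq windows of this length, 3.90% held at least 1. The Icam1 window held no match to that consensus as searched and 1 to the STAT palindrome, at -42 to -34, which 7.02% of the windows held. The search allowed no mismatch, and the Icam1 window holds tggaaattcc, which departs from the NF-kB consensus in its first letter only. The letters AAGTG, the core bound by NKX2 factors, were present in both windows, at -100 to -96 in Madcam1 and -34 to -30 in Icam1, and in 40.7% of all windows. The SP1 core GGGCGG and the TATA and AP-1 cores were searched too. Of these, Icam1 held 1 SP1 core, at -17 to -12, which 32.7% of the windows held, and Madcam1 held none. The windows of Alcam and F11r, not printed, held SP1 cores, F11r also an AP-1 core, and neither matched the NF-kB consensus. A match is a description of the letters and was not tested for binding.

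The remaining LFA-1 ligand moved the other way. Icam2 (ENSMUSG00000001029, GRCm38 chr11:106377656-106388075, minus strand) encodes ICAM-2, which is carried constitutively by endothelial cells. Its values were 13.1, 12.6, 17.9 and 11.4 in WT and 9.43, 7.004 and 6.74 in Ngfr KO. No Ngfr KO sample reached the lowest WT sample, and WT replicate 3 stood above the rest. The WT mean was 1.78 times the Ngfr KO mean, with a limma change of -0.75 (log2, SE 0.19, adjusted p = 0.0113). Per kb of exon, the ratio of Icam1 to Icam2 was 0.419 to 0.712 in the WT samples and 1.31 to 2.48 in the Ngfr KO samples.

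Alcam (ENSMUSG00000022636, GRCm38 chr16:52248996-52454074, minus strand), the gene of the CD6 ligand CD166, had values of 10.1, 9.16, 6.16 and 4.49 in WT. In Ngfr KO they were 1.32, 2.14 and 1.29, from at least 323 reads per sample. All Ngfr KO samples were below all WT samples, whose own values ran widely from replicate 4, the lowest, to replicate 1, the highest. The WT mean was 4.72 times the Ngfr KO mean. By limma Alcam changed by -1.67 (log2, SE 0.24, adjusted p = 6.45e-04), and by edgeR on the recovered reads by -2.15 (SE 0.33, adjusted p = 0.00517). The size depends on the pseudocount, with -0.90 at a pseudocount of 5 and a call in both cases.

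Cadm1 (ENSMUSG00000032076, GRCm38 chr9:47530173-47857637, plus strand) was near the detection filter in WT. Its values were 0.276, 0.621, 0.535 and 2.05 in WT and 2.85, 2.42 and 2.66 in Ngfr KO, from 71 to 785 reads per sample. WT replicate 4 lay close to the Ngfr KO samples and apart from the other WT samples, and it was one of the 4 samples through which the gene passed the filter. Its limma change was 1.04 (log2, SE 0.25, adjusted p = 0.00767), with 0.39 at a pseudocount of 5 and 1.81 at a pseudocount of 0.1. It was 1.31 without WT replicate 4. Cadm1 was not called without a filter (limma adjusted p = 0.0555), where 5 of the 9 genes were called (3 higher) against 10% of all genes (5.31% higher), or by edgeR (change 1.66, edgeR adjusted p = 0.0632).

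None of the 3 junctional adhesion molecules was called, by limma or by edgeR. Jam3 (ENSMUSG00000031990, GRCm38 chr9:27097384-27155421, minus strand) had values of 51.1, 47.6, 51.5 and 40.4 in WT and 37.1, 50.9 and 28.3 in Ngfr KO. The groups overlapped through Ngfr KO replicate 2, without which the change was -0.54; without replicate 3 it was -0.13, and neither was called. The log2 change was -0.32 without a call (95% interval -0.81 to 0.16, limma adjusted p = 0.269). Its antisense neighbour Gm48796 covers 36.2% of the Jam3 exons, had a value of at most 0.812, and cannot be separated from Jam3 in counts without strand.

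F11r (ENSMUSG00000038235, GRCm38 chr1:171437535-171464603, plus strand) had values of 15.7, 12.8, 18.2 and 16.6 in WT and 14.3, 17.6 and 14.3 in Ngfr KO. Both groups covered nearly the same range. The log2 change was -0.03 with a 95% interval of -0.41 to 0.36 (limma adjusted p = 0.911). Its sign turned under median ratio scaling (0.035), with edgeR (0.039) and in 3 of the 7 fits that left out a sample.

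Jam2 (ENSMUSG00000053062, GRCm38 chr16:84774123-84825928, plus strand) was the weakest of the 3, with 79 to 301 reads per sample. Its values were 0.786, 1.13, 1.13 and 0.797 in WT and 0.352, 0.621 and 0.316 in Ngfr KO. All Ngfr KO samples lay below all WT samples. In the fit of all genes without a filter limma gave -0.46 (log2, SE 0.14, adjusted p = 0.0807), and edgeR gave -1.08 (edgeR adjusted p = 0.0730). Neither passed the threshold. Of the 9 genes, edgeR called 5, with Madcam1, Vcam1 and Icam1 higher and Icam2 and Alcam lower. Of all genes it tested, edgeR called 15.2%, 8.67% higher and 6.55% lower.

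Levels of different genes were compared per kb of exon (the union of the annotated exons, GENCODE M21). The union holds the exons of every annotated transcript, 8.87 kb for Vcam1 and 1.44 kb for Madcam1. Which transcripts were expressed was not tested. Orders, shares and ratios per kb depend on these lengths. By undivided value, Vcam1 was the highest of the 9 genes in every sample. In WT the order from the highest was Madcam1 (17.5 ± 4.7 per kb, SD, n = 4), Jam3 (14.9 ± 1.6), Vcam1 (11.4 ± 3.9), Icam2 (7.23 ± 1.51), F11r (5.94 ± 0.84), Icam1 (3.82 ± 0.98), Alcam (1.05 ± 0.37), Jam2 (0.159 ± 0.032) and Cadm1 (0.0833 ± 0.0765). Among neighbours in this order, only Icam1 with Alcam and Alcam with Jam2 had ranges that did not overlap. In Ngfr KO the order was Madcam1 (114 ± 18 per kb, SD, n = 3), Vcam1 (28.6 ± 2.1), Jam3 (12.1 ± 3.6), Icam1 (7.22 ± 1.68), F11r (5.80 ± 0.72), Icam2 (4.06 ± 0.78), Cadm1 (0.253 ± 0.021), Alcam (0.223 ± 0.068) and Jam2 (0.0711 ± 0.0275). Here the ranges of neighbours overlapped for Jam3 with Icam1, Icam1 with F11r, and Cadm1 with Alcam.

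Of the summed level per kb of the 9 genes, Madcam1 made up 20.6% to 33.4% in each WT sample and 60.8% to 71.2% in each Ngfr KO sample. Vcam1 took 14.6% to 22.2% and 15.9% to 17.7%, so its share kept one range while its level rose. The share of Jam3 was 20.3% to 31.1% in the WT samples against 4.70% to 9.52% in the Ngfr KO samples, although Jam3 itself was not called.

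**Figure D3:**
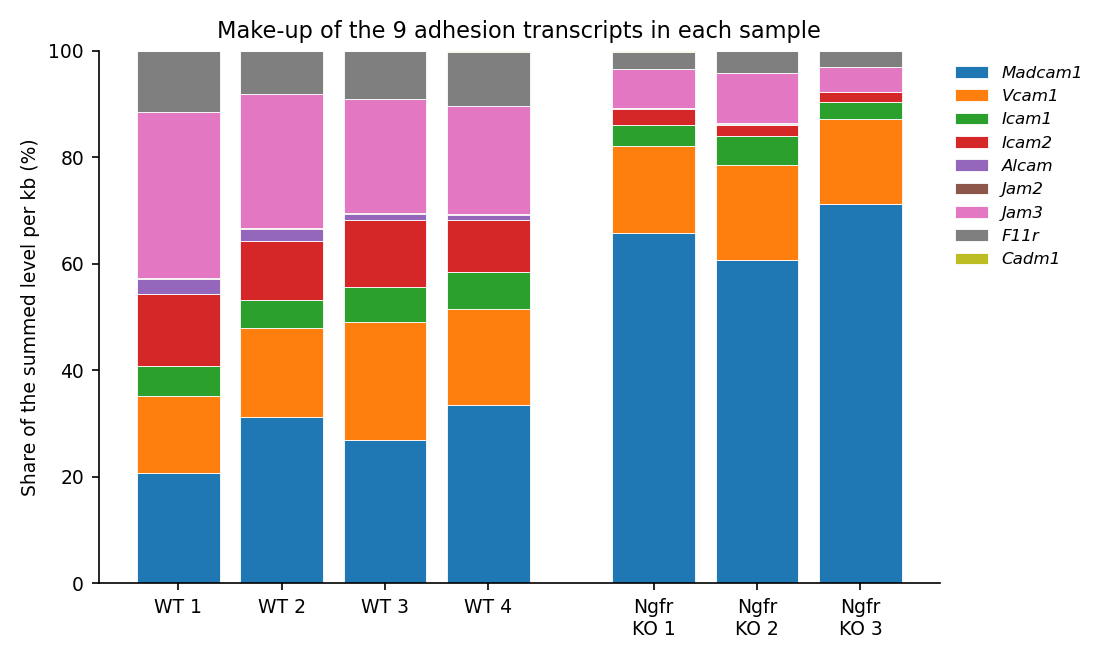
Share (vertical axis, percent) of each gene in the summed level per kb of the 9 genes, 1 bar per sample, WT left and Ngfr KO right. The Madcam1 segment takes 20.6% to 33.4% of the WT bars and 60.8% to 71.2% of the Ngfr KO bars; Jam2 and Cadm1 are too small to be seen. Shares depend on the exon-union lengths.

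Transcripts of the cell types in the sort were set beside these changes. Of 15 tested FDC markers other than the 9 genes, 14 rose and Cxcl13 was not called. Their median change was 1.48, and their summed value was 1777 to 5098 over the WT samples and 7839 to 10326 over the Ngfr KO samples. All 15 tested blood endothelial markers of a list of 17 fell, with a median of -1.55 and a summed value of 171 to 223 over the WT samples and 37.3 to 70.2 over the Ngfr KO samples. Among them were Pecam1 and Cdh5, which lymphatic endothelium expresses too. Emcn, Esam, Robo4, Cd300lg and Gpihbp1 were under 1 in every Ngfr KO sample and passed the filter through WT alone. The untested Flt1 and Cd34 had overlapping groups. Cd34 did not fall, at 0.337 ± 0.194 (SD) over the WT samples and 0.390 ± 0.223 over the Ngfr KO samples. Tested by edgeR, 15 of the 17 were called lower. In a bulk sample, fewer cells of a type and less RNA per cell cannot be told apart. The part of these markers in the values of the 9 genes was not tested beyond the differences within samples given further on.

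Other cell types that carry these adhesion genes differed too. Lymphatic endothelial markers had 4 of 6 tested genes lower (median -1.17), with Prox1, the defining transcription factor, at 23.7 ± 6.7 (SD) over the WT samples and 6.32 ± 0.66 over the Ngfr KO samples. Of the lower genes, Reln was under 1 in every Ngfr KO sample and passed the filter through WT alone. Reticular stroma markers had 5 of 8 higher and none lower (median 0.58), among them Tnfsf11, a gene of marginal reticular cells, with a change of 1.35 (limma adjusted p = 0.00165). Of the high endothelial venule markers, limma called 0 of 2, with 0 at an unadjusted p under 0.05 and 0 of 5 by edgeR; Glycam1 had 149.98 ± 51.4 and 357 ± 247, with overlapping groups (limma adjusted p = 0.107). The summed values of B-cell markers (WT 25.5 to 193, Ngfr KO 19.5 to 59.3) and T-cell markers (2.29 to 9.08 and 2.89 to 8.53) overlapped. The highest B-cell sum was that of WT replicate 3, where Igkc alone had 180. In the other WT samples Igkc had 9.52 to 15.4, and the sums were 25.5 to 38.6. Of the B-cell markers limma called 1 of 5 higher, Ms4a1, with overlapping groups, and edgeR 0 of 10; of the T-cell markers limma called 0 of 4, with 0 at an unadjusted p under 0.05 and 0 of 7 by edgeR. Among the myeloid markers, Lyz2 and Cd14 were higher, and the list had summed values of 7.09 to 11.9 and 10.8 to 43.2. Epcam, the only tested marker of an epithelial list, rose with a change of 2.28 (limma adjusted p = 0.00432) and was not called by edgeR. The epithelial markers Cdh1, Krt8, Krt18, Cldn3 and Krt19 were not analysed here.

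The adhesion genes were also expressed relative to those markers within each sample, which a factor per library can change only through the pseudocount. Genotypes were compared by exact permutation of the labels (two-sided, 35 splits, smallest possible p 0.0286), with Benjamini-Hochberg adjustment over the 5 differences. Relative to the mean of the FDC markers, Madcam1 stood at -0.62 ± 0.21 (SD) over the 4 WT samples and 0.35 ± 0.25 over the 3 Ngfr KO samples, higher by 0.98 on the log2 scale (exact p = 0.0286, adjusted p = 0.0476). The groups did not overlap, so Madcam1 rose by more than the average FDC marker. Vcam1 stood at 1.32 ± 0.36 and 0.99 ± 0.06, with overlapping groups (exact p = 0.257, adjusted p = 0.257). Icam1 stood at -1.18 ± 0.43 and -1.999 ± 0.25, a difference of -0.82 (exact p = 0.0571, adjusted p = 0.0714): its groups did not overlap, and the test did not pass the threshold. Relative to Cr2 alone the Icam1 difference was -0.21 (exact test, adjusted p = 0.657).

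Madcam1 relative to Vcam1, the other ligand of alpha 4 integrins, stood at -1.95 ± 0.30 (SD) over the WT samples and -0.64 ± 0.19 over the Ngfr KO samples, higher by 1.31 (exact p = 0.0286, adjusted p = 0.0476). Per kb of the exon union, whose lengths set the size of this ratio, Madcam1 was 1.21 to 1.86 times Vcam1 in the WT samples. In the Ngfr KO samples it was 3.44 to 4.48 times Vcam1. Icam2 relative to the tested endothelial markers stood at 0.59 ± 0.22 and 1.43 ± 0.25, higher by 0.84 (exact p = 0.0286, adjusted p = 0.0476). Their mean includes Emcn, Esam, Robo4, Cd300lg and Gpihbp1, which passed the filter through WT alone, and leaves out Flt1 and Cd34. The filter thus favoured markers that are low in Ngfr KO, so no conclusion is drawn from this p-value. The size of the Icam2 difference follows the pseudocount, with 1.41 at 0.1 (exact test, adjusted p = 0.0476) and 0.35 at 5 (exact test, adjusted p = 0.107). With Pecam1 alone as the denominator the difference was 0.71 and did not pass (exact test, adjusted p = 0.0952). With Cr2 alone in place of the FDC markers, Madcam1 was higher by 1.59 (exact test, adjusted p = 0.0714).

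**Figure D4:**
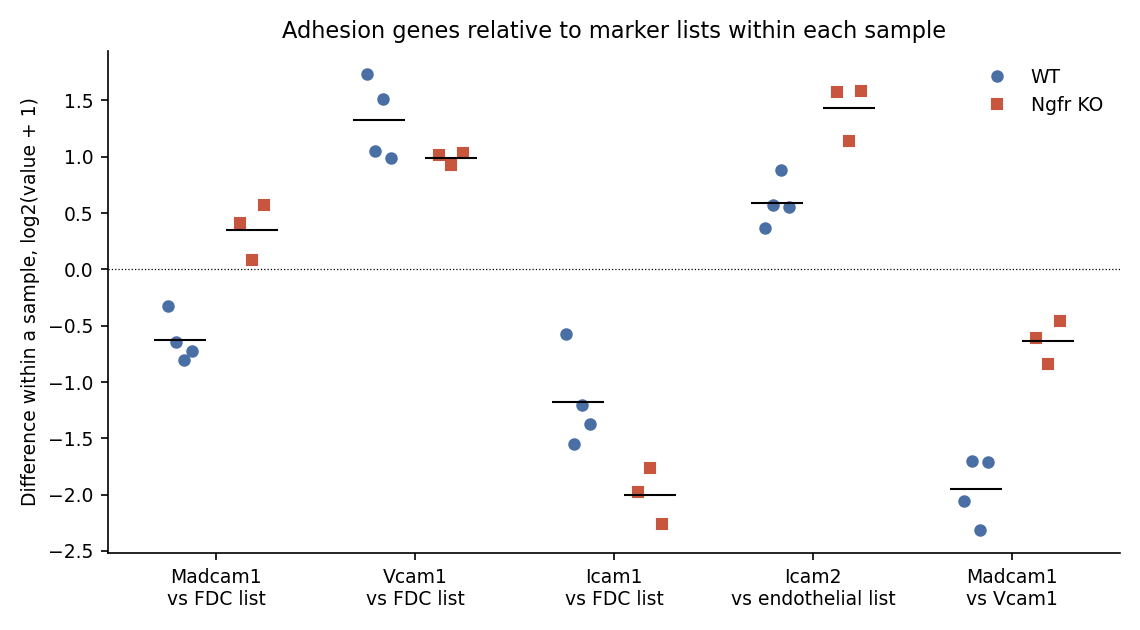
Difference within a sample (vertical axis, log2(value + 1)) between an adhesion gene and the mean of the tested genes of a marker list, or between Madcam1 and Vcam1, for WT (circles) and Ngfr KO (squares); horizontal lines are means. Madcam1 against the FDC list and against Vcam1, and Icam2 against the endothelial list, are higher in every Ngfr KO sample than in any WT sample.

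The lymphocyte partners of these proteins were scarce in the sorted cells. Itga4 and Itgb7, the chains of the MAdCAM-1 receptor, had 0.541 ± 0.282 and 0.293 ± 0.241 over the WT samples (SD), against 0.346 ± 0.074 and 0.409 ± 0.363 over the Ngfr KO samples. Itgal and Itgb2, the chains of LFA-1, had 0.210 ± 0.167 and 0.315 ± 0.2199 in WT and 0.230 ± 0.019 and 0.492 ± 0.102 in Ngfr KO. WT replicate 3 held 0 reads of either LFA-1 chain, which allows a value of up to 0.0130 by counting error alone. Cd6, the ALCAM receptor, had 0.151 ± 0.090 and 0.1295 ± 0.102, and Crtam, the CADM1 receptor, 0.0460 ± 0.0294 and 0.152 ± 0.124. The genotypes overlapped for each of these genes, and none of the 6 reached the filter. Of 16 listed partners, 5 were tested and limma called 0, with 1 (Cd226) at an unadjusted p under 0.05 and 0 of 14 by edgeR. Cd226 was called lower in some alternative fits, with a change of -0.44 here (limma adjusted p = 0.0504). Itgb1, the beta 1 chain, was the abundant partner, at 25.2 ± 1.3 in WT and 28.9 ± 2.6 in Ngfr KO (change 0.19, limma adjusted p = 0.397).

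Other adhesion genes of the superfamily moved in both directions. Of 14 tested of 33 listed, 5 were higher and 3 lower (median 0.32), against 18.3% and 15.8% of all genes tested. The endothelial adhesion gene Pecam1 fell from 13.7 ± 3.3 to 4.26 ± 0.75 (change -1.46, limma adjusted p = 5.11e-04), and Esam, of endothelial tight junctions, by 0.69 on the log2 scale. Nectin2 fell as well, with a change of -0.69. Ncam1, a homophilic neural and stromal adhesion gene, rose from 1.56 ± 0.51 to 3.53 ± 1.15 (change 0.82, limma adjusted p = 0.0116), and Igsf8 rose by 0.86. Ncam1 was not called without a filter (limma adjusted p = 0.0593). The remaining called genes were Nectin3, Bsg and Cd47, all higher.

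Junction scaffold and membrane-cytoskeleton genes were mostly lower where they were called. Of 21 tested genes, 7 fell and 2 rose (median -0.10), against 15.8% lower and 18.3% higher over all genes tested. Tjp1, the gene of ZO-1, fell from 7.34 ± 1.85 to 1.82 ± 0.47 (change -1.55, limma adjusted p = 4.75e-04). Afdn, the gene of afadin, fell from 7.92 ± 1.08 to 3.09 ± 0.30 (change -1.12, limma adjusted p = 6.36e-04), and the actin crosslinker Actn4 fell by 0.70 on the log2 scale. Pard3, Mpdz and Rdx were lower too. Epb41l3, a membrane-skeleton protein that binds the CADM1 tail, rose from 2.11 ± 1.05 to 5.49 ± 0.55 (change 1.12, limma adjusted p = 0.00454), as did Msn, the gene of moesin, which links ICAM and VCAM tails to actin.

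A list of inputs of Vcam1, Icam1 and Madcam1 held receptors, ligands, kinases, adaptors, NF-kB inhibitors and transcription factors. Of 22 tested, 3 were higher and 3 lower (median 0.03), against 18.3% and 15.8% of all genes tested. Nfkbia, the NF-kB inhibitor and target, rose from 113 ± 41 to 233 ± 43 (change 1.10, limma adjusted p = 0.0144; not called without WT replicate 2, without Ngfr KO replicate 2 or without a filter), and the interleukin-1 receptor gene Il1r1 from 2.52 ± 0.78 to 5.56 ± 0.28 (change 0.92, limma adjusted p = 0.00327). Relb, the partner of p52 downstream of the lymphotoxin receptor, had 5.97 ± 1.00 and 9.29 ± 2.43 with overlapping groups (change 0.55, limma adjusted p = 0.0449); it was not called in 8 of 16 alternative fits. Ltb, the lymphotoxin beta gene, fell from 5.11 ± 1.26 to 2.19 ± 0.33, and Sp1 and Nfkb1 were lower too. Ltbr, the lymphotoxin receptor, had 1.59 ± 0.44 and 1.44 ± 0.30 (change -0.08, 95% interval -0.45 to 0.29).

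Of the sheddases and their inhibitors, 1 of 6 tested genes rose and 1 fell, against 18.3% and 15.8% of all genes tested. The inhibitor Timp3 fell from 74.1 ± 20.4 to 32.3 ± 4.7 (change -1.14, limma adjusted p = 0.00436), and Timp1 rose by 1.15 and was not called without a filter (limma adjusted p = 0.0524). Adam17, known to cut VCAM-1 and ICAM-1 from the surface, had a change of -0.22 and was not called. Among selectins, addressins and the enzymes that modify them, 2 of 7 tested genes rose and 2 fell. Gcnt1, an enzyme that branches O-glycans, rose from 6.35 ± 2.36 to 21.8 ± 1.4 (change 1.70, limma adjusted p = 8.76e-04), and B3gnt3, which extends O-glycans, by 0.51. The sialomucin genes Emcn and Podxl fell, with changes of -1.69 and -1.18. Both were under 1 in every Ngfr KO sample and passed the filter through WT alone. B3gnt3 was under 1 in every WT sample and passed it through Ngfr KO alone. Without a filter B3gnt3 (limma adjusted p = 0.0749) and Podxl (limma adjusted p = 0.0667) were not called, nor was B3gnt3 without WT replicate 2 (limma adjusted p = 0.0675).

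**Figure D5:**
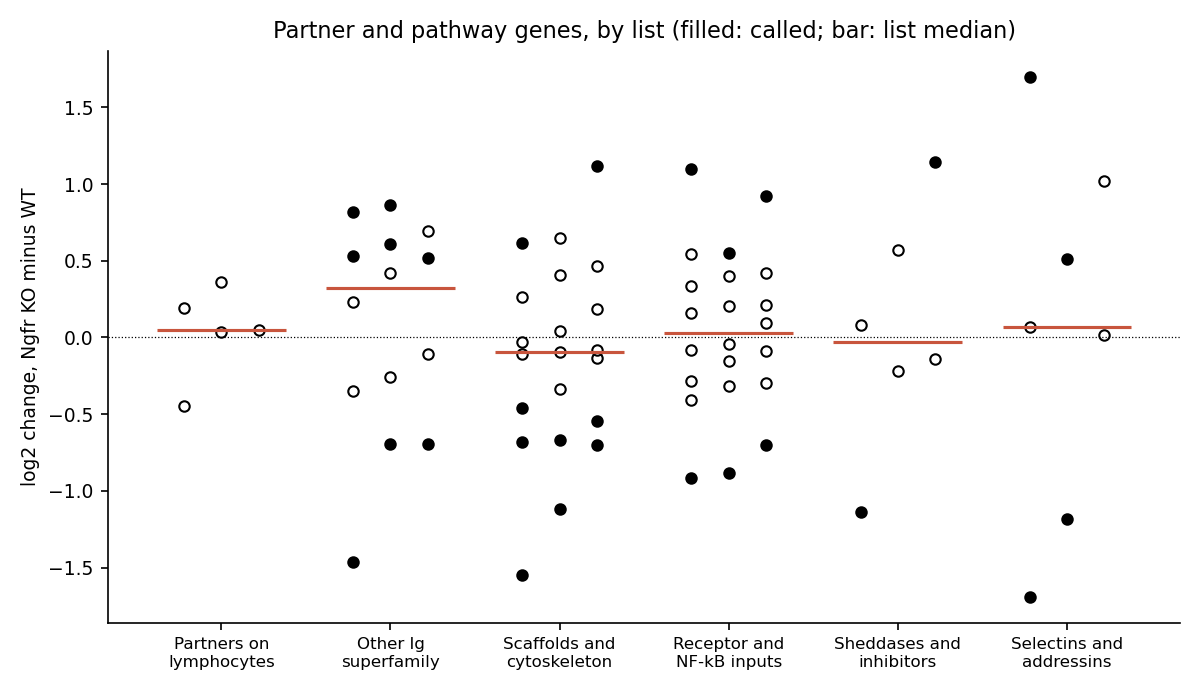
Change (vertical axis, log2, Ngfr KO minus WT) of each tested gene of 6 lists of partner and pathway genes; filled points were called and bars are list medians. The medians lie between -0.10 and 0.32, against 0.02 over all genes tested.

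Genes whose profile over the 7 samples was most like that of an adhesion gene were listed by Pearson's r of log2(value + 1), as a description. For Madcam1 they were Ift57 (r = 0.997), Ramp3 (0.997) and Serpina3i (0.995), the last of a family of near-identical paralogs. For Vcam1 they were Erp44 (0.999), Tubb6 (0.996) and Rpp40 (0.996), and for Icam1 Cdk5rap3 (0.997), Rae1 (0.997) and Lap3 (0.995). For Icam2 they were Gimap9 (0.989), Fat4 (0.988) and Emcn (0.984), and for Alcam Tgfbr3 (0.996), Klhl3 (0.995) and Tbc1d4 (0.989). All points share the 2 genotypes, so such values mainly follow the difference between groups. Among the 9 genes, r was 0.955 between Madcam1 and Vcam1, 0.938 between Vcam1 and Icam1, -0.964 between Madcam1 and Alcam, and -0.09 between Madcam1 and F11r (n = 7 samples each).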

How the data were processed

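The authors deposited 1 table with a normalised signal per gene for each of 7 libraries, which its name calls TMM; dividing by 1 factor per library gave whole reads for 100% of the deposited values (tolerance 0.05 reads). Per the labels' protocols, cDNA was made with SMART-Seq v4 and libraries with Nextera XT. The submitters' processing notes name bcl2fastq 2.20.0.422 and mm10; the aligner, counter and annotation are not given in the sources used here. The 95% intervals are from limma and rest on the spread between libraries. Floors cover counting error only. The 9 genes and all lists were chosen with earlier results of these data known.

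limma 3.58.1 (R 4.3.3; eBayes with trend) was fitted on log2(value + 1), which understates changes of low genes. edgeR 4.0.16 (quasi-likelihood, filterByExpr) was run on the recovered reads as an alternative and called 2551 genes. Both were tested on simulated data. Other alternatives were pseudocounts of 0.1 and 5, no filter, a filter at a value of 10, quantile and median ratio scaling, robust eBayes without trend, a replicate block, leaving out each sample, and, chosen after seeing the data, thinned reads. Besides the 9 genes, up to 4 called genes per list with the largest change were named, plus Itga4, Itgb7, Itgal, Itgb2, Cd6, Crtam, Ltbr and Relb; other genes were chosen after their values were seen. Listed genes not in the table, Nkx2-3 among them, were not analysed here. Coordinates and exon lengths are from GENCODE M21 (21118 of 21176 identifiers matched), and promoter windows, held for 4 of the 9 genes, from RefSeq.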

Additional observations from a re-analysis of the deposited data

Results flagged for a closer look

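Dixon's criterion for 4 samples (the gap of the highest or lowest WT sample to the next one, as a part of the group's range) was applied to 41 results. Chance passes about 5% of them, or 2.05, and 2 passed. For Madcam1 on the log2(value + 1) scale, WT replicate 1 lay apart below the others, its gap taking 0.831 of the range. For Itga4, WT replicate 3 lay apart below the others, with a gap of 0.889 of the range: its value was 0.122, against 0.652 to 0.734 in the other WT samples.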

How the results depend on the processing

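Of the 9 genes, 4 to 6 were called under the alternatives tried, with 6 in the reported fit. The calls of Madcam1, Vcam1, Icam2 and Alcam held in every fit that tested them. F11r turned sign with median ratio scaling (0.035) and edgeR (0.039). Cadm1 lost its call without a filter (1.04) and with edgeR (1.66). Leaving out 1 sample at a time gave 0.71 to 1.02 for Icam1 and -0.12 to 0.038 for F11r. Over all genes, 2844 were called, 535 with the stricter filter, which tested only 1297, and 1614 to 3006 without 1 sample (1870 without WT replicate 1, 1803 without Ngfr KO replicate 1 and 1614 without Ngfr KO replicate 2). Called genes of the lists numbered, without a filter, 1 lymphocyte partner, 4 other superfamily genes, 1 sheddase or inhibitor and 2 selectin or addressin genes; with the stricter filter, 3 superfamily genes, 2 scaffolds, 1 input, 1 sheddase or inhibitor and 1 selectin or addressin gene; with thinned reads, 1 partner. Without 1 sample, 0 to 1 partners and 5 to 8 superfamily genes were called, with 5 where WT replicate 1 was left out. Within samples, 1 gene as denominator gave 1.59 for Madcam1, 0.28 for Vcam1 (reversed), -0.21 for Icam1 and 0.71 for Icam2; a pseudocount of 5 gave 0.35 for Icam2 and -0.75 for Icam1, the latter then past the threshold, and one of 0.1 gave 1.41 for Icam2. Without 1 sample the smallest exact p is too large to pass, and the differences were 0.87 to 1.11 (Madcam1), -0.95 to -0.62 (Icam1), 0.76 to 0.98 (Icam2) and 1.19 to 1.41 (Madcam1 relative to Vcam1), with adjusted p of 0.0833 or more. The cause of these shifts was not tested. Leaving out 1 sample turned the sign of small changes, which ran from -0.061 to 0.32 for Itgb7, -0.054 to 0.11 for Itgal, -0.10 to 0.013 for Cd6 and -0.19 to 0.010 for Ltbr; Cd6 also turned with quantile normalization (0.0047).

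Replicate numbers are shared by both genotypes. Deviations of same-numbered samples from their group means had r = 0.30, -0.06 and -0.01 for numbers 1, 2 and 3. For number 1 this was the highest r among the pairs compared across genotypes, with 0.11 the next. Samples numbered 2 and 3 did not deviate together, so the numbers are not taken as pairs. With the replicate block, which leaves WT replicate 4 without a partner, 2717 genes and 6 of the 9 were called; Madcam1 had a change of 2.78, Cadm1 1.31, and the sign turned for Cd6 (0.013) and Ltbr (0.010). Depth limits Jam2, Cadm1 and the lymphocyte receptor genes, where a value of 1 stands for 230 reads or more.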
